A study of Homo sapiens with 6 samples.

Results

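The amyloid precursor protein gene APP, its relatives APLP1 and APLP2, and 5 genes for the enzymes that cut these proteins were followed in EndoC-βH1 cells with and without siRNA against MNX1. The enzyme genes were ADAM10, BACE1, BACE2, PSEN2 and NCSTN. The 8 genes were taken by symbol from the 16792 genes of one deposited expression table, and 8 of 8 were present. They were selected on their siMNX1 and siNT values, that is, with the direction and size of each gene's difference between the groups already known. Those differences are therefore described and not tested, and limma calls given for these genes are description only.

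APP, APLP1 and APLP2 are membrane proteins that cross the membrane once and shed their outer parts after cleavage. ADAM10 is the main α-secretase, which cuts APP inside the amyloid β sequence, and BACE1 is the β-secretase, which cuts at its start. BACE2 is a close relative of BACE1 that cuts APP mostly within amyloid β and is known from pancreatic beta cells for shedding the surface protein collectrin (CLTRN). The stubs that remain are cut in the membrane by γ-secretase, a complex with a presenilin, such as that encoded by PSEN2, as its catalytic subunit and nicastrin (NCSTN) as a subunit that screens substrates.

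EndoC-βH1 (EndoCBH1 in the labels) is an established human beta cell line. Cells labelled WT had received a non-targeting siRNA (siNT, 3 libraries) and cells labelled as MNX1 knock down had received siRNA against MNX1 (siMNX1, 3 libraries). MNX1 is a homeobox transcription factor, and the series title links it to repression of PERCC1 and of somatostatin. The labels give no time after transfection and do not say whether replicates were separate cultures. The p-values set a group difference against the spread among these samples, and that spread may be only technical.

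All values are the authors' normalized counts. Deposited totals lay between 18406479 and 18704645 per library, which reflects the normalization. A rough estimate from the spacing of low values gave 15338237 to 21866167 reads on listed genes per library, and it is uncertain because fewer than 50% of low values lay at that spacing. MNX1 itself had 2039, 2033 and 1988 normalized counts in the siNT libraries (replicates 1, 2 and 3) and 1885, 1708 and 1751 in the siMNX1 libraries. All 3 siMNX1 values were thus below the 3 siNT values. The log2 fold change was -0.18, which limma did not call (adjusted p = 0.116). PERCC1 rose from 44.3 ± 9.25 to 842 ± 59.1 (SD, n = 3, limma, adjusted p = 2.47e-06). SST, the somatostatin gene, rose from 220 ± 16.6 to 858 ± 24.5 (limma, adjusted p = 3.97e-06). All 12 of 12 fixed beta cell markers were in the table, and their summed level ran from 165925 to 175441 in siNT and from 177390 to 188526 in siMNX1. Limma called MAFA and PCSK1 higher (log2 fold changes 0.56 and 0.40) and IAPP and G6PC2 lower (-1.84 and -0.36). INS, the insulin gene and most of that sum, had 110539 ± 3758 and 125386 ± 5655, higher in all 3 siMNX1 libraries but not called by limma (log2 fold change 0.18, adjusted p = 0.0656; 0.0314 with robust variances). On the second principal component (20.1% of the variance) siMNX1 replicates 1 and 2 stood apart at -29.4 and 31.7, and the remaining 4 ran from -2.40 to 2.66.

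The start regions of the family are shown because APLP1 and APLP2 were both higher in the siMNX1 libraries and APP was not. Each run is the 250 bases just before a RefSeq transcription start (GRCh38.p14), 5′ to 3′ on the strand of the gene. Capitals mark GC boxes, GGGCGG on either strand, with overlapping matches counted separately. APP has a further start upstream of the one shown.
APLP1, chr19:35868324-35868573, plus strand: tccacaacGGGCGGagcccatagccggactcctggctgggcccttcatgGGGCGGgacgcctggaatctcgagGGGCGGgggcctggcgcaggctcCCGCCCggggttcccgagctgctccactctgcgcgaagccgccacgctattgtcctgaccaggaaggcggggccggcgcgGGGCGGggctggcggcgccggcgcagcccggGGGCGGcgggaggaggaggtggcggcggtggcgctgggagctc
APLP2, chr11:130070318-130070567, plus strand: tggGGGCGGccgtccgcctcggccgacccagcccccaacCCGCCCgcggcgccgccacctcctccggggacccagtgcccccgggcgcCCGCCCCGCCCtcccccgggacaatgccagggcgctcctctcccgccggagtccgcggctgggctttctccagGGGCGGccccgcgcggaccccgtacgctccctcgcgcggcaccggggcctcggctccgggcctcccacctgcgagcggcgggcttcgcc
APP, chr21:26170771-26171020, minus strand: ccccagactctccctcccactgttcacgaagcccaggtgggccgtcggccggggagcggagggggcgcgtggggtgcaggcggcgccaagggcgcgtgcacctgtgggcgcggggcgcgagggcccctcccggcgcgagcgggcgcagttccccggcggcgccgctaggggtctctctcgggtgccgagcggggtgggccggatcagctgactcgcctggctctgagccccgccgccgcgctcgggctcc
The APLP1 window held 6 GC boxes and the APLP2 window 5, while the APP window held 0. At least 1 GC box was found in 42.6% of 35116 windows of this length before RefSeq starts. GC content was 77.2% for APLP1, 82.4% for APLP2 and 78.8% for APP, against a median of 58% over all windows. RefSeq windows were matched for 7 of the 8 genes, 10 windows in all, with none for BACE2. The homeodomain core TAATTA, its own reverse complement, was in 0 of these 10 windows and in 4.35% of all windows. The letters TATAAA, on either strand, were in 1 of the 10, the upstream APP start (chr21:26171129-26171378), and in 10.7% of all windows. PSEN2 had 2 GC boxes, ADAM10 had 1 and NCSTN had 0, the upstream APP window had 0, and the 3 BACE1 windows had 1, 0 and 1. These matches describe letters only and are not binding sites. The printed windows were picked after the expression values were seen. How often windows hold 5 or more GC boxes was not counted. A link between GC boxes and the differences was not tested.

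APP, the founding member, lies on chromosome 21 (25880550 to 26171128, minus strand, GRCh38, GENCODE 29). Its normalized counts were 9266, 9751 and 9553 for siNT, in replicate order as for all values that follow, against 9471, 9223 and 8540 for siMNX1. The groups overlapped, and siMNX1 replicate 3 was the lowest library. The means were 9523 ± 244 and 9078 ± 482 (SD, n = 3 per group), with a log2 fold change of -0.07 (SE 0.05).

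APLP1, the relative known mainly from neurons, lies on chromosome 19 (35867899 to 35879791, plus strand). It had 5161, 5689 and 5344 normalized counts in siNT and 6490, 6264 and 6725 in siMNX1. Every siMNX1 library was above every siNT library. The mean went from 5398 ± 268 to 6493 ± 230 (SD, n = 3), a ratio of 1.20 and a log2 fold change of 0.27 (SE 0.05). NPHS1, on the opposite strand, shares 232 exon bases with APLP1 and had 314 ± 32.1 and 404 ± 45.4. Whether reads were counted by strand is not given in the sources used here, so reads from the shared bases cannot be told apart.

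APLP2, the broadly expressed relative, lies on chromosome 11 (130068147 to 130144811, plus strand). It had 9713, 9679 and 9727 normalized counts in siNT and 11409, 11551 and 11196 in siMNX1. The 3 siNT values lay within a narrow band, and the 3 siMNX1 values were all above it. The mean went from 9706 ± 24.7 to 11385 ± 179 (SD, n = 3), a ratio of 1.17 and a log2 fold change of 0.23 (SE 0.04).

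ADAM10, the α-secretase, lies on chromosome 15 (58588807 to 58749978, minus strand). It had 1981, 1892 and 2034 in siNT and 2249, 2216 and 2010 in siMNX1. The groups overlapped through siMNX1 replicate 3, which was below siNT replicate 3. The log2 fold change was 0.13 (SE 0.06).

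BACE1, the β-secretase, lies on chromosome 11 (117285207 to 117316259, minus strand). It had 4000, 3860 and 4451 in siNT and 4498, 4205 and 4256 in siMNX1. The groups overlapped, with siNT replicate 3 above siMNX1 replicates 2 and 3. The log2 fold change was 0.08 (SE 0.06). The antisense transcript BACE1-AS shares 1872 exon bases with BACE1 and had 246 ± 28.3 in siNT and 244 ± 6.26 in siMNX1. RNF214, a protein-coding gene on the opposite strand, shares 1239 exon bases with BACE1 and had 450 ± 33.8 and 497 ± 28.6.

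BACE2 lies on chromosome 21 (41167801 to 41282518, plus strand) and had the largest absolute log2 fold change of the 8 genes. It had 1314, 1349 and 1380 normalized counts in siNT and 959, 988 and 1044 in siMNX1. Every siMNX1 library was below every siNT library, and the spread within each group was small beside the gap. The mean fell from 1348 ± 32.9 to 997 ± 43.4 (SD, n = 3), a ratio of 0.740 and a log2 fold change of -0.44 (SE 0.06).

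PSEN2, a catalytic subunit of γ-secretase, lies on chromosome 1 (226870184 to 226896105, plus strand). It had 401, 423 and 423 in siNT and 356, 300 and 341 in siMNX1. Every siMNX1 library was below every siNT library, with siMNX1 replicate 2 the lowest. The means were 416 ± 12.3 and 332 ± 29.01, a ratio of 0.799 and a log2 fold change of -0.33 (SE 0.09). NCSTN, which encodes nicastrin, lies on the same chromosome (160343272 to 160358952, plus strand). It had 2308, 2151 and 2118 in siNT and 2222, 1988 and 2080 in siMNX1, and the groups overlapped. Its log2 fold change was -0.06 (SE 0.06). COPA, on the opposite strand, shares 129 exon bases with NCSTN and had 3656 ± 209 and 3415 ± 188.

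**Figure D1:**
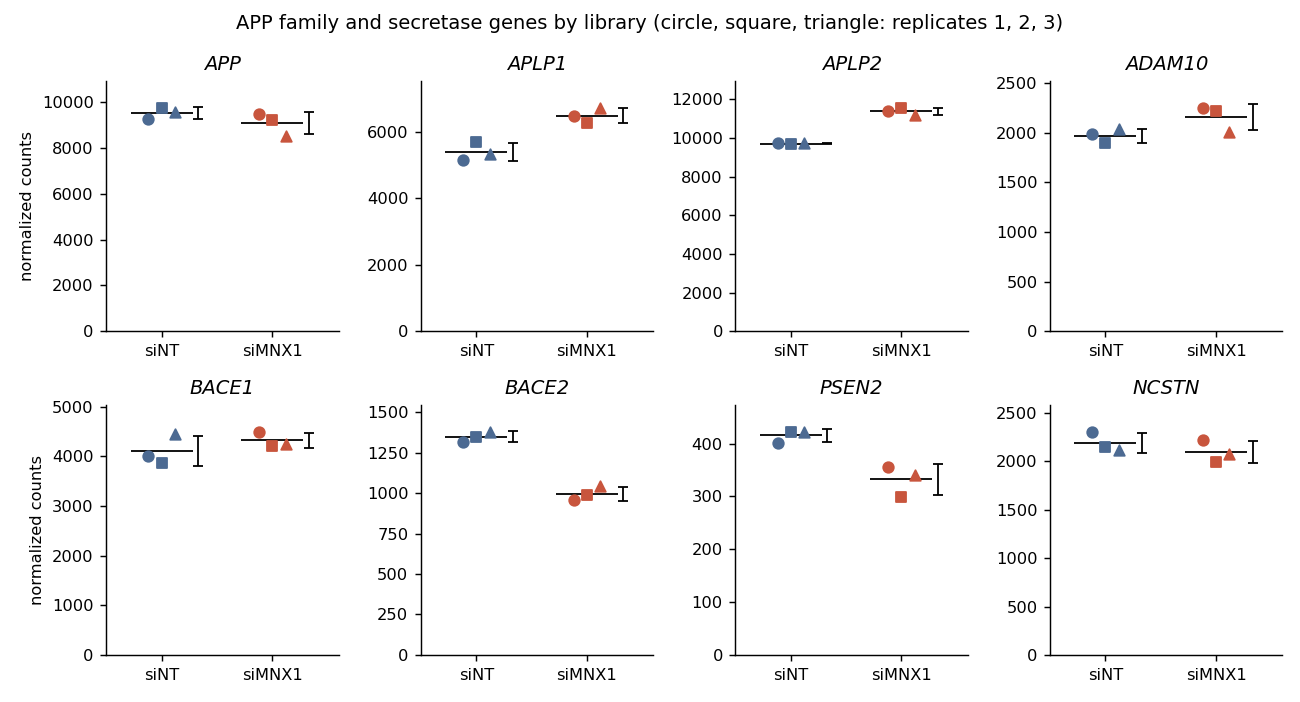
Normalized counts (vertical axis, from 0) of the 8 genes in each library, with siNT in blue and siMNX1 in red. Points are libraries, horizontal lines are group means and bars are SD (n = 3). BACE2 and PSEN2 are lower in all 3 siMNX1 libraries and APLP1 and APLP2 are higher in all 3, while the groups overlap for the other 4 genes.

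In the limma fit across all 16792 genes, 2 of the 8 genes (APLP1 and APLP2) were among the 335 called higher, which is 1.99% of all genes. BACE2 alone was among the 223 called lower, 1.33% of all genes. BACE2 was called with any 1 library left out. APLP1 was not called without siMNX1 replicate 1 or 3 or without siNT replicate 1 or 3. APLP2 was not called without siNT replicate 2 or 3. All siMNX1 libraries lay above all siNT libraries for 2 of the 8 genes, against 12.0% of all genes, and below them for 2, against 12.1%. Since the genes were picked with this contrast known, nothing is read from these shares. The same holds for the calls of the 8 genes and for whether they lasted with a library left out. The median log2 fold change was 0.01 over the 8 genes and -0.00045 over all genes, whose middle 50% ran from -0.12 to 0.14. APLP1, APLP2, BACE2 and PSEN2 lay outside that range.

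Log2 fold changes with a library left out ran from 0.24 to 0.31 for APLP1, from 0.22 to 0.24 for APLP2, from -0.47 to -0.41 for BACE2 and from -0.38 to -0.25 for PSEN2. For APP, ADAM10, BACE1 and NCSTN these fits also kept the sign, with ranges of -0.10 to -0.03, 0.10 to 0.18, 0.03 to 0.14 and -0.11 to -0.03.

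**Figure D2:**
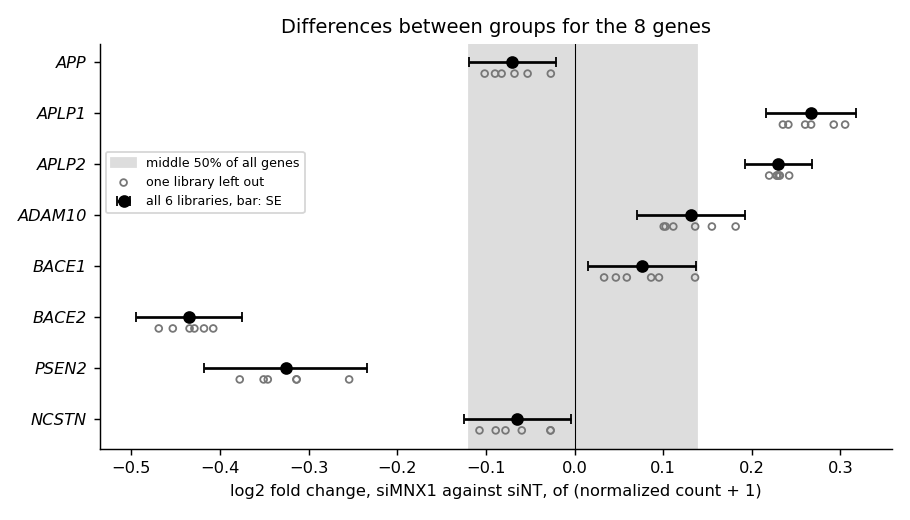
Log2 fold change of siMNX1 against siNT (horizontal axis, on normalized count + 1) for the 8 genes. Filled points use all 6 libraries with SE bars, open points leave out 1 library each, and the grey band is the middle 50% of all genes (-0.12 to 0.14). BACE2 at -0.44 and PSEN2 at -0.33 lie to the left of the band, APLP1 at 0.27 and APLP2 at 0.23 to its right.

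Levels of the genes were compared with each other per kb of merged exon length. In siNT the 3 family members were the most abundant, with APP at 1508 ± 38.6, APLP1 at 1477 ± 73.3 and APLP2 at 1301 ± 3.31 normalized counts per kb (SD, n = 3). The ranges of APP and APLP1 overlapped, while APLP2 lay below both. BACE1 (571 ± 42.9) and NCSTN (525 ± 24.3) followed, with overlapping ranges. BACE2 (140 ± 3.42), ADAM10 (122 ± 4.44) and PSEN2 (111 ± 3.27) were the lowest, with ranges that did not overlap. In siMNX1 the order was APLP1 (1776 ± 63.0), APLP2 (1526 ± 24.0), APP (1437 ± 76.3), BACE1 (601 ± 21.8), NCSTN (502 ± 28.2), ADAM10 (133 ± 8.02), BACE2 (104 ± 4.52) and PSEN2 (88.5 ± 7.73), with no overlap between neighbours. Over the 6 libraries, APLP1, APP and APLP2 stood at the 98.0th, 97.6th and 97.4th percentile of all genes with a gene model on this scale, and PSEN2 at the 53.6th.

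The order within these tiers depended on the length used. With the longest protein-coding transcript in place of merged exons, APP, APLP2 and APLP1 came in that order in siNT (2688 ± 68.8, 2594 ± 6.60 and 2164 ± 107 per kb) and BACE2 was the lowest of the 8 genes in both groups (154 ± 3.75 and 114 ± 4.96). NCSTN then stood above BACE1 in siNT, and in siMNX1 their ranges overlapped (677 to 757 and 665 to 711 per kb). The 3 tiers themselves were the same with either length.

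**Figure D3:**
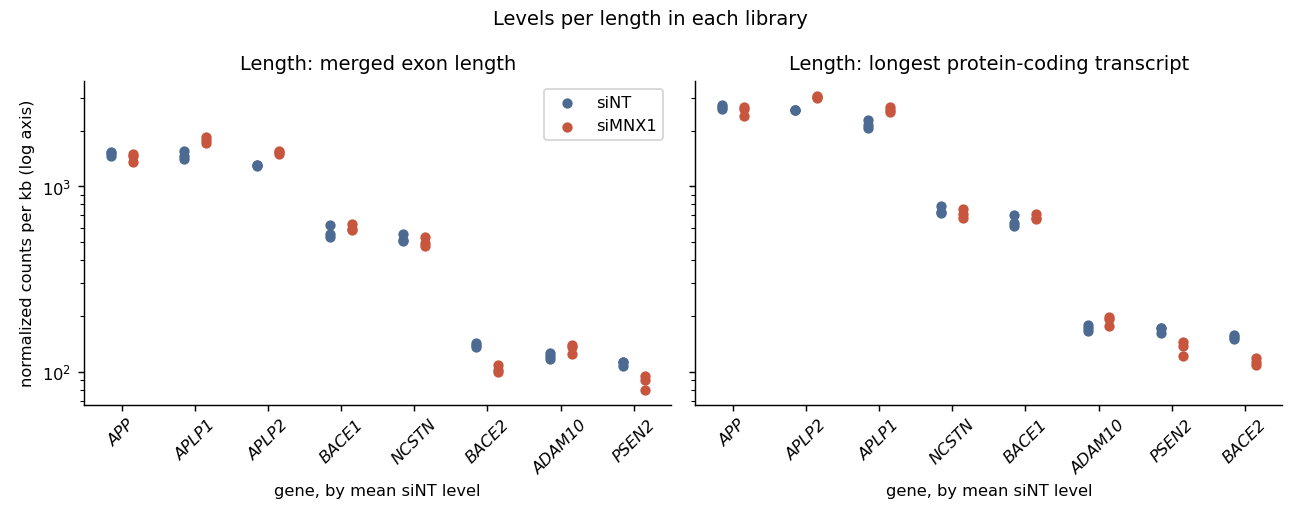
Normalized counts per kb (log axis) of each gene in each library, siNT in blue and siMNX1 in red, by merged exon length on the left and longest protein-coding transcript on the right. The family genes form the top tier, BACE1 and NCSTN the middle one, and ADAM10, PSEN2 and BACE2 the lowest, with either length.

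Within the family the composition differed between the groups. Per kb of merged exon length, APP made up 35.1%, 35.1% and 35.4% of the summed APP, APLP1 and APLP2 level in the siNT libraries, against 31.2%, 30.9% and 28.8% in the siMNX1 libraries. The APP share was thus lower in every siMNX1 library, although APP itself overlapped between the groups. The APLP1 share was 34.4% ± 0.844 in siNT and 37.5% ± 1.53 in siMNX1, and the APLP2 share 30.4% ± 0.823 and 32.2% ± 0.514. The summed level of the family was 4285 ± 108 per kb in siNT and 4739 ± 57.9 in siMNX1, with no overlap. The shares and the sum restate values of genes picked with this contrast known and are not a separate result.

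Between the β-site enzymes, BACE2 made up 19.7%, 20.7% and 18.8% of the summed BACE1 and BACE2 level per kb in siNT and 13.7%, 14.9% and 15.5% in siMNX1. The sum of both enzymes was 711 ± 45.4 in siNT and 704 ± 19.2 in siMNX1, and its groups overlapped. The BACE2 share likewise restates the values of genes picked with this contrast known.

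Other genes of the pathway were counted in 6 lists. Of 123 listed genes 106 were in the table, of which 6 (5.66%) were higher and 2 (1.89%) lower by limma at an adjusted p under 0.05, against 1.99% and 1.33% of all genes. Their median log2 fold change was 0.01. The lists were chosen with earlier results of these data known. Nothing is therefore read from these shares or from the counts by list below. The counts were mostly smaller with a library left out: without siNT replicates 1, 2 and 3 they were 3, 3 and 2 higher with 0 lower each time, without siMNX1 replicate 3 they were 3 and 1, and without siMNX1 replicates 1 and 2 they were 5 and 0, and 6 and 1. Over all genes the same 6 fits called 133 to 257 higher and 64 to 179 lower. The unadjusted limma p was under 0.05 for 35 of the 106 genes, 19 higher and 16 lower. By list, in the order below, these were 1, 4, 8, 14, 5 and 3. The share of all genes at that limit was not counted, so nothing is read from unadjusted counts here or below.

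Of the γ-secretase partners, which complete or modulate the complex, 5 of 5 were measured and limma called 0 (1 had an unadjusted p under 0.05). The median log2 fold change was 0.08. TMED10, a trafficking protein that also binds the complex, had 4741 ± 207 and 5032 ± 411, and APH1A, a core subunit, had 2317 ± 7.94 and 2253 ± 93.8. Of 16 measured sheddases and their regulators limma called 0 (4 unadjusted), with a median of 0.01. FURIN, the convertase that activates ADAM10 and BACE1, had 4318 ± 25.6 and 4410 ± 243. TSPAN5, a tetraspanin that escorts ADAM10, had 1693 ± 23.4 and 1683 ± 22.8.

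Among 34 measured adaptors and sorting genes of APP, 2 were higher and 0 lower, with a median of -0.02. APBB1, whose product FE65 binds the intracellular tail of APP, had 1068, 1027 and 1099 in siNT and 1403, 1472 and 1323 in siMNX1. The groups were well separated, and the log2 fold change was 0.39 (SE 0.06, limma, adjusted p = 0.0112). RTN1, a reticulon of the endoplasmic reticulum and of the family that binds BACE1, rose from 905 ± 43.9 to 1185 ± 17.1, with a log2 fold change of 0.39 (SE 0.06, limma, adjusted p = 0.0105). The APBB1 call ended without siNT replicate 2 (limma, adjusted p = 0.0567) and the RTN1 call without siNT replicate 3 (limma, adjusted p = 0.0572). The other 32 genes, among them the sorting receptors SORL1 and SORT1 (log2 fold changes -0.09 and -0.05, named after their values were seen), did not pass.

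Of 32 measured substrates of these enzymes, 4 were higher and 1 lower, with a median of 0.04. CDH2, the adhesion protein N-cadherin that ADAM10 sheds, had 4185, 4339 and 4290 in siNT and 5217, 5410 and 5132 in siMNX1. All siMNX1 libraries were higher, with a log2 fold change of 0.30 (SE 0.04, limma, adjusted p = 0.00749), and the call held with any 1 library left out. NRCAM, a neuronal adhesion protein, rose from 2675 ± 63.7 to 3762 ± 522 and CD44, the hyaluronan receptor, from 1911 ± 126 to 2576 ± 246. NOTCH3, a Notch receptor at low level, rose from 24.4 ± 3.32 to 73.3 ± 32.2, and its siMNX1 libraries spread from 41.7 to 106. DLL4, a Notch ligand, fell from 886 ± 30.05 to 711 ± 29.2. Log2 fold changes of NRCAM, CD44, NOTCH3 and DLL4 were 0.48, 0.43, 1.46 and -0.32 (limma, adjusted p = 0.0198, 0.0204, 0.0404 and 0.0347).

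These calls were less stable than that of CDH2. NRCAM lost its call without siNT replicates 1 (limma, adjusted p = 0.0676), 2 (0.062) or 3 (0.0945) or siMNX1 replicate 3 (0.0565). CD44 lost it without siNT replicate 1 (limma, adjusted p = 0.059), siNT replicate 3 (0.102) or siMNX1 replicate 3 (0.0585). NOTCH3 lost it without any library but siMNX1 replicate 2, with adjusted p up to 0.127 by limma, and DLL4 without any but siMNX1 replicate 2, with adjusted p up to 0.145. Of the same list, 3 seizure-related genes whose products BACE1 sheds, named after their values were seen, were not called by limma: SEZ6 had a log2 fold change of 0.24, SEZ6L -0.24 and SEZ6L2 0.06. CLTRN, the BACE2 substrate of beta cells, was near the low end of the table at 8.23 and 15.0 (log2 fold change 0.79, limma, adjusted p = 0.246).

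Of 10 measured amyloid-degrading proteases limma called 0 (5 unadjusted), with a median of -0.05. CTSD, the lysosomal protease cathepsin D, had 4588 ± 32.7 and 4959 ± 245, with the reservation that it shares 1304 exon bases with AC068580.4, an annotated gene on its strand. ECE1, endothelin-converting enzyme, had 4348 ± 158 and 4482 ± 139. Of 9 measured other intramembrane proteases 0 were higher and 1 lower. It was HM13, signal peptide peptidase, a relative of the presenilins, which had 6241, 6370 and 6334 in siNT and 5677, 5477 and 5443 in siMNX1 (log2 fold change -0.19, limma, adjusted p = 0.0398). The HM13 call ended in 6 of 6 fits with a library left out (limma, adjusted p from 0.0731 to 0.148). MCTS2P lies on the same strand inside HM13 and shares 670 exon bases with it.

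**Figure D4:**
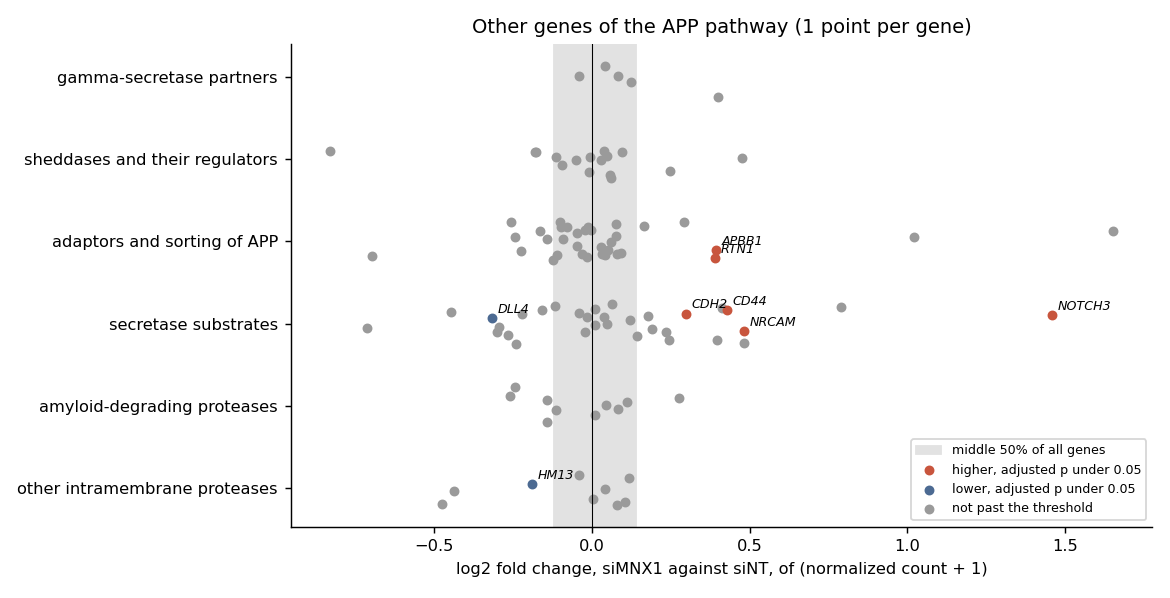
Log2 fold change of siMNX1 against siNT (horizontal axis) of 106 further pathway genes in 6 lists, 1 point per gene, with red for higher and blue for lower at an adjusted p under 0.05 and grey for the rest. The 6 red and 2 blue points are labelled, and most grey points lie in or near the grey band, the middle 50% of all genes (-0.12 to 0.14).

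APLP1 and BACE1 are abundant in neurons, so fixed neuron and glia markers were read beside them. Of 5 markers 3 were in the table, SNAP25, MBP and GFAP, and their summed level ran from 3131 to 3335 in siNT and from 3433 to 3642 in siMNX1, without overlap. RBFOX3 and SLC17A7 were not among the listed genes. The 3 measured markers did not all move the same way: log2 fold changes were above 0 for 2 and below 0 for 1. Their sum mostly follows the most abundant of them. Limma called 0 of the 3 markers (1 unadjusted), and their part in the APLP1 difference was not tested. Summed delta cell markers, 4 of 5 measured, ran from 1348 to 1404 in siNT and from 1959 to 2035 in siMNX1. They did not move together: SST and HHEX (54.1 ± 10.6 and 484 ± 24.4) were called higher, while RBP4 fell from 981 ± 26.8 to 507 ± 54.5 and was called lower (limma, log2 fold change -0.96, adjusted p = 0.000451). Of 5 duct cell markers 2 were measured, KRT19 and KRT7, with sums from 1138 to 1306 and from 1331 to 1432 and 0 called by limma (1 unadjusted). Of these 2, 1 had a log2 fold change above 0 and 1 below 0. The part of these markers in the values of the 8 genes was not tested either. In bulk RNA, more cells of a type and more RNA per cell cannot be told apart.

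For each of the 8 genes, the gene with the most similar log2 values over the 6 libraries was found by Pearson r among genes with a mean of at least 50. These were FBXO44 for APP (r = 0.993), TSPAN1 for APLP1 (0.996), CNIH2 for APLP2 (0.997), PLBD2 for ADAM10 (0.994), DNAJC16 for BACE1 (0.991), STIP1 for BACE2 (0.999), IMPDH2 for PSEN2 (0.997) and FER1L4 for NCSTN (0.991). With only 6 libraries in 2 groups a high r is easily reached: between 16 and 261 genes exceeded 0.95 for each of the 8. CNIH2 had 4082 ± 59.2 in siNT and 5443 ± 152 in siMNX1, higher in all 3 siMNX1 libraries as for APLP2. STIP1 had 3896 ± 30.05 and 3442 ± 62.2, lower in all 3 as for BACE2. CNIH2 and STIP1 were picked for this likeness over the same libraries, so the shared direction came with the choice.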

How the data were processed

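RNA was measured in 6 libraries, 3 siNT and 3 siMNX1, grouped by their titles. Per the labels' protocols, 5 ng of total RNA went into each library (Ovation Solo kit), and AnyDeplete removed ribosomal RNA. The authors deposited normalized counts, a signal per gene with decimals. Per the submitters' processing notes the build was GRCh38 and the tools included STAR 2.7.6a, RSEM 1.3.1, R 3.6.3 and DESeq2 1.26.0, with no role stated. Neither the annotation nor the gene filter, nor whether reads were counted by strand, is given in the sources used here. No count model was used, because the deposited values were normalized and had decimals. In the search for read depth, only 25.8% to 47.4% of values under 10 lay within 0.02 of a whole multiple of a read. No pair of libraries shared an identical nonzero value.

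Values were analysed as log2(value + 1), which understates changes of low genes. Group differences were fitted with limma 3.58.1 (R 4.3.3, variance trend) over all 16792 genes, with Benjamini-Hochberg adjustment and a threshold of 0.05. The fit was tested on simulated data. Positions and lengths came from GENCODE 29. Symbols missing from the file were added by identifier for 417 genes. The 8 genes, the lists and the tests were chosen with earlier results of these data known. Some listed genes are not reported here and were left out of the list counts. Named pathway genes were up to 5 called genes per list with the largest change or, where none was called, the 2 most abundant. Alternatives were pseudocounts of 0.5 and 5, a minimum mean of 20, TMM scaling, equal totals, robust variances, leaving out each library, the replicate number as a block, and another gene length. Python 3.11.15, numpy 2.4.6, pandas 2.3.3 and matplotlib 3.10.9 were used.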

Additional observations from a re-analysis of the deposited data

How the results depend on the processing

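Called genes numbered 335 higher and 223 lower with all libraries, and 133 to 257 higher and 64 to 179 lower with 1 library left out. Pathway genes numbered 6 and 2, and 2 to 6 higher and 0 to 1 lower with 1 library left out. These settings have fewer samples. With the replicate number as a block (replicate block), 162 genes were higher and 75 lower, and 4 pathway genes were higher and 0 lower. The block ended the calls of APBB1, CD44, DLL4 and HM13 (limma, adjusted p = 0.0543, 0.0583, 0.107 and 0.127). Of the 8 genes, only BACE2 kept its call with the block, while APLP1 and APLP2 lost theirs. The 8 genes were picked with this contrast known, so nothing is read from which calls held. No shared deviation was seen between same-numbered libraries: deviations from the group means correlated at -0.01, -0.01 and -0.04. With 3 libraries per group this cannot settle whether same-numbered samples were paired. The log2 fold change of each of the 8 genes moved by less than 1 SD of its replicates in all 13 alternatives. For most of these settings that outcome was fixed in advance. In groups of this size, leaving out 1 library cannot shift a group mean by that much. The replicate block, the robust model and the stricter filter leave the log2 fold change unchanged by design. The other pseudocounts can hardly move genes at these levels. PSEN2, the lowest of the 8 by normalized count, went from -0.3261 to -0.3265 with 0.5 and to -0.3226 with 5. Only both scalings could have exceeded the limit, and they did not. Other pseudocounts, the stricter filter, both scalings and the robust model gave 324 to 357 higher and 223 to 247 lower genes. The median of all genes moved by under 0.01 on the log2 scale. With the other gene length, the APLP1 share of the family was 29.05% in siNT and 31.7% in siMNX1, and the APLP2 share 34.9% and 37.1%. The shares kept their order between the groups. The reads behind each value are known only roughly, so no counting interval was given.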
